A study of Mus musculus with 12 samples.

Results

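The solute carriers are a large group of membrane transport proteins, and their genes carry the symbol Slc followed by a family number. The regions of open chromatin described here are those whose annotated gene symbol begins with Slc and a digit in the authors' deposited tables for LSD1i, Combo, CER and Day0. They make 422 of the 30120 rows of those 4 tables. After joining rows that share peaks they are 365 regions assigned to 213 genes of 46 families, and 90 of these genes had more than 1 region. The name is broader than the function, since Slc9a3r1 and Slc9a3r2 encode scaffold proteins and 3 antisense genes contribute 5 rows. A row entered a table only because it passed the authors' threshold in that comparison, so counts and folds of listed rows are a description.

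A carrier binds its substrate on one side of a membrane, changes shape and releases it on the other, either down a gradient or coupled to sodium, protons or a counter-substrate. The families divide by substrate: amino acids, sugars, monocarboxylates, nucleosides, metals, inorganic ions and, in the Slc25 family, metabolites that cross the inner mitochondrial membrane. Proliferating myeloid progenitors take up glucose and glutamine through such carriers, and purine analogues enter cells by nucleoside and nucleobase carriers.

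Open chromatin was measured by ATAC-seq, in which a transposase cuts accessible DNA and tags it for sequencing, in granulocyte-monocyte progenitors from C57BL6 bone marrow that carry ER-HOXA9, a fusion of the estrogen receptor with a leukaemia protein that holds these cells undifferentiated while estradiol is present. All groups were kept in 0.5 uM estradiol with stem cell factor, and each held 2 biological replicates. Day0 was untreated at day 0. The others were taken at day 2 after DMSO (Vehicle), 200 nM of GSK-LSD1, which blocks the lysine demethylase LSD1 (LSD1i), 5 uM mercaptopurine, a purine analogue (6MP), 5 uM cerulenin, a fatty acid synthase inhibitor (CER), or all 3 drugs together at those doses (Combo). The fusion keeps the cells in an engineered block, and no group lacks it, so these are not normal progenitors. Libraries held 42651 to 56398 peaks at a depth of 2.44 to 4.55 fragments per position. At start sites, 6 of 8 progenitor markers were open in every library, among them Mpo, Ctsg and Kit, whereas Elane and Prtn3 had no peak. The megakaryocyte markers Pf4, Itga2b and Gp9 were open in all 12 libraries. None of 3 T cell markers was, and of 3 macrophage markers only Mrc1 had a peak, in 2 libraries. Also open in all 12 were 1 of 4 neutrophil markers (Camp), 1 of 4 dendritic (Flt3) and 1 of 2 B cell (Cd79a). The same held for 1 of 4 erythroid (Epor) and 1 of 3 mast cell markers (Mcpt8).

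Start sites gave a reading that used no measured value: for 294 Slc genes the RefSeq table (GRCm38.p6) holds a window from 250 bases before to 50 bases after the start. The 250 bases before the start are shown for 6 genes that the results turn on, namely the one start site that opened under GSK-LSD1 (Slc6a19, a neutral amino acid transporter of gut and kidney), 3 that closed (Slc25a22, the mitochondrial glutamate carrier; Slc25a20, the carnitine-acylcarnitine carrier; Slc8a2, a sodium-calcium exchanger) and 2 that closed and hold a motif searched below (Slc19a1, the reduced folate carrier; Slc36a1, a lysosomal proton-coupled amino acid transporter). Capitals mark motif matches on either strand and the sequences read 5′ to 3′ along the gene.
Slc6a19, chr13:73692637-73692886, minus strand: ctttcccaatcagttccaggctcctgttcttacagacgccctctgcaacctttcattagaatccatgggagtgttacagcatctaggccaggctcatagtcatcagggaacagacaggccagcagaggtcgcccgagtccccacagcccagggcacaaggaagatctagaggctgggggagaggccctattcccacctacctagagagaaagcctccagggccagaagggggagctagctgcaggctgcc
Slc25a22, chr7:141435376-141435625, minus strand: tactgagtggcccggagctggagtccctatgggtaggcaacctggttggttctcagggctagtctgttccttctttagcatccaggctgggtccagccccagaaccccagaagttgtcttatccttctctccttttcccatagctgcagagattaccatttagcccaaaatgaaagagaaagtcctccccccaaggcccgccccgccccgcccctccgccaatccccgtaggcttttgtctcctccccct
Slc25a20, chr9:108661886-108662135, plus strand: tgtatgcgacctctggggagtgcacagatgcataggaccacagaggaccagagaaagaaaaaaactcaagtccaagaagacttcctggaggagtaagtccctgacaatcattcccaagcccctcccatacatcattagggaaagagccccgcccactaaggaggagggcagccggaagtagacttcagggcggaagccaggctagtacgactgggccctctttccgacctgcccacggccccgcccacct
Slc8a2, chr7:16129576-16129825, plus strand: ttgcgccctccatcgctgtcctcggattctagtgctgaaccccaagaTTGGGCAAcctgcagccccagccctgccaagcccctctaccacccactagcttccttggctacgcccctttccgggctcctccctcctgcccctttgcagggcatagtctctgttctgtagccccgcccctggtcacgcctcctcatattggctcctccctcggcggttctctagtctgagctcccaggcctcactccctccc
Slc19a1, chr10:77032962-77033211, plus strand: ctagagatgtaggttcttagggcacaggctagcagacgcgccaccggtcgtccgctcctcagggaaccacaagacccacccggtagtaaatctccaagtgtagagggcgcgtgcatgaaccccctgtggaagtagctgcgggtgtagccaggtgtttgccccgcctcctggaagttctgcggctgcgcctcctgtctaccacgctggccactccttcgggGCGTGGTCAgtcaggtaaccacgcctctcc
Slc36a1, chr11:55204090-55204339, plus strand: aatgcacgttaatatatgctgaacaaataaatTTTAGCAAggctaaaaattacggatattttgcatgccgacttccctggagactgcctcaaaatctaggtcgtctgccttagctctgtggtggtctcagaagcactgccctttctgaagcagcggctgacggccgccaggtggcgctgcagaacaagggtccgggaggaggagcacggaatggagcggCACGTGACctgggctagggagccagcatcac

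The first 3 hold none of the motifs searched. Slc8a2 holds a match to the C/EBP pattern TTGCNNAA, Slc19a1 a match to the NRF2 pattern TGACNNNGC, and Slc36a1 a C/EBP match beside CACGTG, the MYC E-box, which here lies within the longer TFEB pattern GTCACGTG. Over both strands, CACGTG occurred in 11% of 372 Slc windows and in 6.02% of all 32851 windows. Among windows open in every library it was in 13.7% of 175 Slc windows and 8.73% of 12468. The TFEB pattern was in 2.96% of Slc and 1.85% of all windows, and the NRF2 pattern in 13.4% and 10.2%. C/EBP matches were in 7.80% of Slc and 9.56% of all windows, the PU.1 pattern GAGGAAGT in 1.88% and 2.44%, and the RUNX pattern TGTGGTTT in 0.538% and 1.49%. The ATF4 pattern TGATGNAAT was in 0.806% and 0.816%, and the GFI1 pattern in no Slc window and 0.158% of all. Slc windows were richer in G and C, with a median of 57.6% against 52.4%, and the part of base composition in these shares was not tested.

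Start sites of mitochondrial and nucleotide sugar carriers mostly held a peak, and those of organic ion and peptide carriers mostly did not. Classes are whole families, so each is named for its main substrate. A peak covered the start window in all 12 libraries for 141 of the 294 Slc genes (48.0%, against 37.8% of 27025 genes in all), in no library for 132 (44.9% against 57.1%) and in some libraries for 21. Of the mitochondrial Slc25 carriers 29 of 36 were open in every library (80.6%), of the nucleotide sugar and acetyl-CoA carriers of the Golgi and endoplasmic reticulum 22 of 29 (75.9%), and of the zinc carriers 13 of 20 (65.0%). All 6 genes of the metal carrier families Slc11 and Slc31 and the magnesium family Slc41 with a window were open. By contrast 4 of 23 organic ion transporters (17.4%), 3 of 15 peptide and vesicular carriers (20%) and 8 of 22 genes of Slc2, Slc5, Slc45 and Slc50 (36.4%) were, families that carry mostly sugars, though Slc5 also holds carriers of iodide, choline and vitamins. Amino acid transporters were divided, with 21 of 49 open throughout and 27 in no library. Slc1a1, Slc1a3 and Slc5a1, carriers of glutamate and of glucose with sodium, had no peak at the start, nor did the dopamine and serotonin carriers Slc6a3 and Slc6a4.

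**Figure D1:**
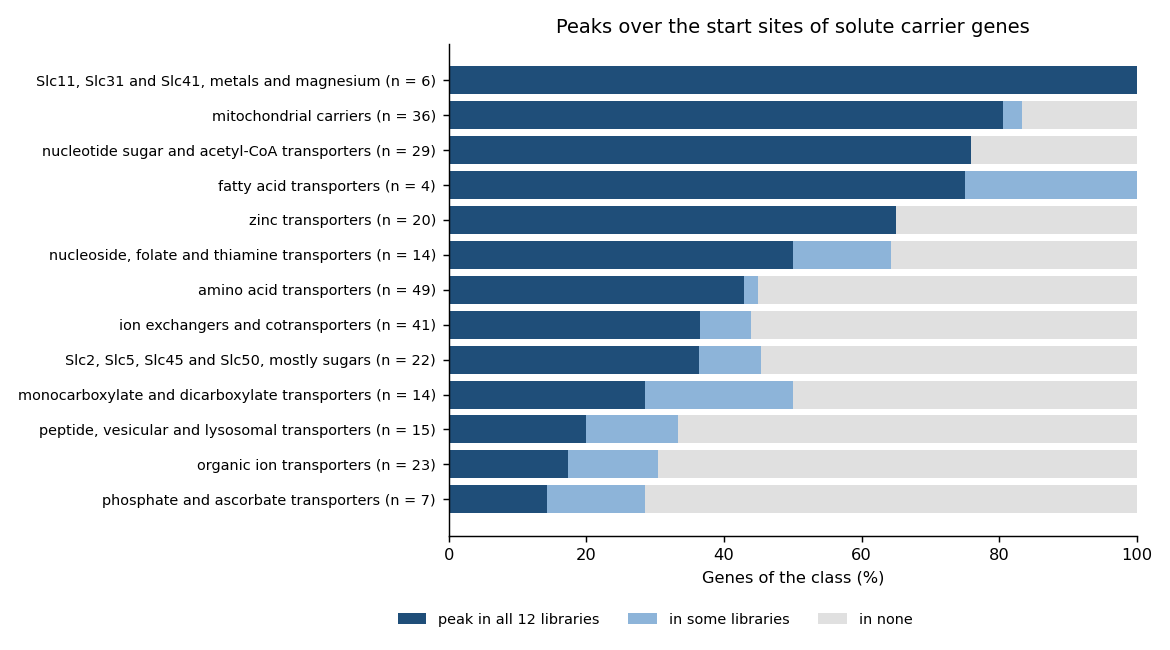
Share of Slc genes, in percent of each substrate class, whose RefSeq start window held a peak in all 12 libraries, in 1 to 11 or in none. Mitochondrial carriers reach 80.6% open in all 12, and organic ion transporters 17.4%.

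Few start sites were called changed by limma against Vehicle under a drug. A change was called where limma's adjusted p over all regions tested was under 0.05, and the quantity compared was summit signal, the log2 of a peak's fragment pileup over the library's depth, centred on each library's median. Under LSD1i, 1 of 150 Slc start regions opened and 3 closed relative to Vehicle (0.667% and 2.00%), where 0.906% and 1.72% of regions over any start site did. In Combo 0 of 153 opened and 5 closed (0% and 3.27%, against 1.20% and 1.21%). The median Slc start region differed by -0.17 (log2) in LSD1i and -0.15 in Combo, beside -0.16 and -0.14 over all start sites. The authors' deposited tables, with their own promoter annotation, listed more. In that for LSD1i promoters made 193 of 271 closed Slc rows (71.2%, beside 62.7% of all closed rows). They made 12 of 46 opened ones there (26.1%, beside 21.3%). In that for Combo they made 17 of 82 opened Slc rows (20.7%, beside 21.2%) and 1 of 9 closed ones. With the 4 GSK-LSD1 libraries set against the other 8, 1 of 148 opened and 47 closed (0.676% and 31.8%, against 2.59% and 26.6% of all start sites). Without the centring, scaled by depth alone, that last contrast gave 1 opened and 0 closed, and centred by intensity 7 opened and 27 closed, so the 47 rest on the centring. The 48 calls became 19, 22 and 96 on leaving out LSD1i replicate 2, Combo replicate 1 or 6MP replicate 1. The 4 calls of LSD1i became 0 without Vehicle replicate 1 or LSD1i replicate 2, 1 without LSD1i replicate 1 and 13 without Vehicle replicate 2. The 5 of Combo became 1 without Vehicle replicate 1 and 0 without Combo replicate 1, and none of the start site calls against Vehicle held when scaled by depth.

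Slc6a19 was the start site that opened. Its summit signal was -1.73 and -1.24 in Day0, -1.33 and -1.22 in Vehicle, -0.62 and -1.27 in 6MP, -1.46 and -1.62 in CER, -0.40 and -0.22 in LSD1i and -0.64 and -0.95 in Combo. Both LSD1i libraries lay above all 8 libraries without GSK-LSD1, whereas the Combo range overlapped that of 6MP. The difference from Vehicle was 0.97 ± 0.24 (log2, SE, limma adjusted p = 0.0110), and 0.76 over all 4 GSK-LSD1 libraries against the rest (adjusted p = 1.72e-04). Slc25a22 closed at its start, by -0.71 ± 0.17 in LSD1i (adjusted p = 0.00899) and -0.63 ± 0.17 in Combo (adjusted p = 0.0160). Its signal was 0.66 and 0.58 in Day0, 0.56 and 0.14 in Vehicle, -0.45 and -0.27 in LSD1i, -0.02 and 0.41 in 6MP, 0.55 and 0.68 in CER and -0.46 and -0.10 in Combo. All 4 GSK-LSD1 libraries were below the other 8. The LSD1i call was lost without Vehicle replicate 1, at -0.49, without LSD1i replicate 1, at -0.61, and without LSD1i replicate 2, at -0.80, and the Combo call without Vehicle replicate 1, at -0.42, and Combo replicate 1, at -0.45.

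Other start sites that closed were Slc25a20 in LSD1i (-0.56 ± 0.15, limma adjusted p = 0.0215) and Slc18a2, the vesicular monoamine transporter, in both LSD1i (-0.50 ± 0.15, adjusted p = 0.0403) and Combo (-0.51 ± 0.15, adjusted p = 0.0278). In Combo the start of Slc7a7, a cationic amino acid exchanger, closed by -0.56 ± 0.14 (limma adjusted p = 0.0102). Slc8a2 closed there by -0.78 ± 0.24 (adjusted p = 0.0432) and Slc9a3r2 by -0.55 ± 0.17 (adjusted p = 0.0467). At Slc8a2 the signal was -2.19 and -2.15 in Combo, -1.95 and -1.74 in LSD1i and between -1.82 and -0.82 in the other 8 libraries, so both Combo libraries were the lowest. Among the 47 that closed against the other 8 libraries were Slc50a1, a sugar carrier (-0.56 ± 0.10, limma adjusted p = 1.06e-04), Slc19a1 (-0.33 ± 0.10, adjusted p = 0.00889) and Slc36a1 (-0.27 ± 0.09, adjusted p = 0.0221). Slc6a19, Slc7a7, Slc8a2, Slc9a3r2, Slc36a1 and Slc50a1 were named after their values were seen.

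Among listed regions, those at Slc genes followed the tables as a whole. In the authors' deposited table for LSD1i, 46 Slc rows opened and 271 closed, 14.5% opened beside 16.6% of all its rows. Of the 51629 regions that its FDR and p-values imply were tested, 34.3% closed and 6.81% opened. In the authors' deposited table for Combo, 82 Slc rows opened and 9 closed, 90.1% opened beside 85.6%, where 12.8% of an implied 53239 regions opened and 2.15% closed. The median opened fold in the authors' deposited tables was 0.92 (log2) in LSD1i and 1.06 in Combo, and the median closed fold -0.49 and -0.84. Closed rows of the authors' deposited table for LSD1i were at promoters in 71.2% (62.7% of all its closed rows), and opened rows in 26.1% (21.3%). The same gene often had rows both ways: the authors' deposited table for LSD1i did so for 13 genes, among them Slc9a8, Slc26a8, Slc38a1 and Slc7a5. The 2 tables share the Vehicle libraries.

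**Figure D2:**
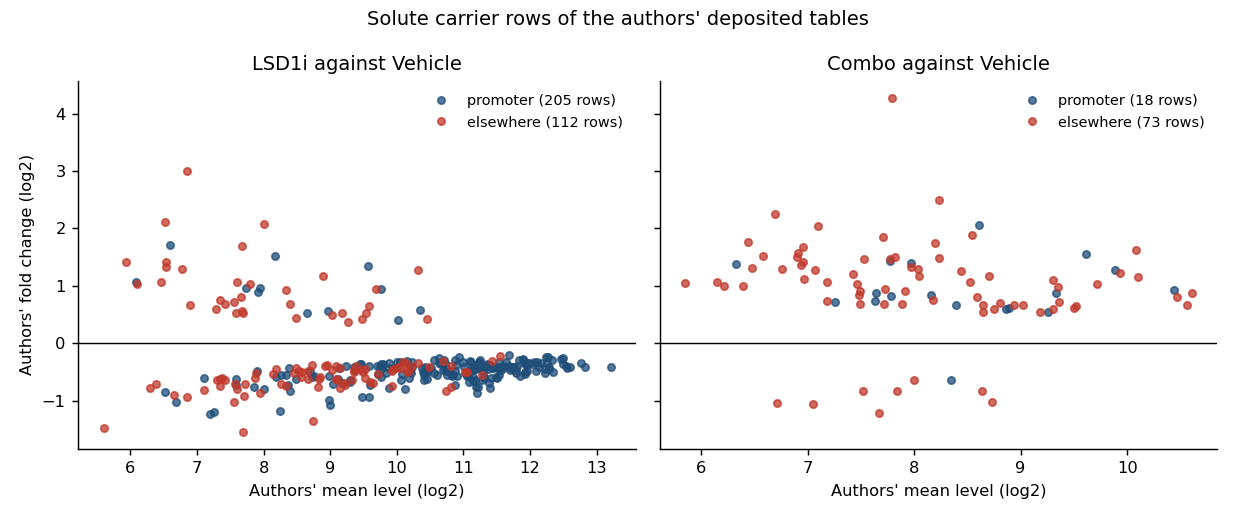
The authors' log2 fold against mean log2 level of each listed Slc row, for LSD1i (205 promoter and 112 other rows) and Combo (18 and 73). In the LSD1i panel most rows are closed, at promoters and at high level; in the Combo panel 82 of 91 lie above 0.

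On summit signal, 300 of the 365 regions had a peak in all 4 libraries of LSD1i and Vehicle, and 26 opened and 15 closed. That is 8.67% and 5.00%, beside 4.00% and 2.05% of all 41322 regions tested. In Combo 24 of 309 opened and 18 closed (7.77% and 5.83%, beside 4.97% and 3.11% of 42677). Since the rows were chosen in these contrasts, higher shares than the background follow from the choice. Scaled by depth alone, 3 opened and 0 closed in LSD1i, at Slc9a8, Slc6a19os and Slc26a8, and 17 opened and 1 closed in Combo. Centred by intensity, 29 opened and 14 closed in Combo. All other differences from Vehicle called in LSD1i below are on the centred scale and were not called on depth alone. The 41 calls became 17, 13 and 10 on leaving out Vehicle replicate 1, LSD1i replicate 1 or LSD1i replicate 2. The 42 of Combo became 23, 19 and 22 on leaving out Vehicle replicate 1, Combo replicate 1 or Combo replicate 2. The 2 lists of calls share 24 regions, of 41 and 42. Opened calls in LSD1i were at 7 promoters, 8 introns, 7 intergenic and 4 other regions, and closed calls at 10 promoters, 3 introns and 2 intergenic regions.

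Ion exchangers and cotransporters held several opened regions. A region between B4galt5 and Slc9a8, which encodes a sodium-proton exchanger of the Golgi and endosomes, lies 24947 bases before Slc9a8 (chr2:167394160-167396652, mm10). Its summit signal was -0.90 and -1.33 in Day0, -0.66 and -0.88 in Vehicle, -0.38 and -0.87 in 6MP and -1.12 and -0.83 in CER, but 0.97 and 0.79 in LSD1i and 0.58 and 0.31 in Combo. All 4 GSK-LSD1 libraries were above the other 8. The difference from Vehicle was 1.65 ± 0.19 in LSD1i (limma adjusted p = 1.31e-06) and 1.22 ± 0.19 in Combo (adjusted p = 7.55e-05). Against Day0, 6MP and CER the same LSD1i libraries differed by 1.79 ± 0.16 (adjusted p = 1.48e-09).

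Regions at Slc6a19os and Slc12a7 on chromosome 13 opened in both groups. The region listed for Slc6a19os, an antisense gene, lies 1854 bases from Slc6a19 and 29166 bases from Slc12a7 (chr13:73702634-73703886). Its signal was between -1.77 and -0.89 in the 8 libraries without GSK-LSD1, 0.58 and 0.44 in LSD1i and 0.21 and 0.08 in Combo, with no overlap. The difference from Vehicle was 1.69 ± 0.21 (limma adjusted p = 2.70e-06) in LSD1i and 1.32 ± 0.21 (adjusted p = 6.00e-05) in Combo. Another region lies inside Slc12a7, a potassium-chloride cotransporter, and was annotated by the authors as promoter (chr13:73803462-73804362, at -247 bases from a start). The RefSeq start of Slc12a7 had a peak in all 12 libraries. In the region inside the gene the signal was 0.50 and 0.97 in LSD1i, 0.79 and 0.65 in Combo and between -0.99 and 0.03 elsewhere. That region differed by 1.16 ± 0.17 (limma adjusted p = 4.92e-05) in LSD1i and 1.14 ± 0.17 (adjusted p = 3.56e-05) in Combo, the former not called when scaled by depth, at 1.0 (adjusted p = 0.484). The Slc12a7 region between them (chr13:73763079-73764365) differed by -0.09 and -0.01, without a call, and the Slc6a19 start described above was called in LSD1i and not in Combo.

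Slc26a8, an anion exchanger known from sperm, had no peak at its RefSeq start in any library. A region inside the gene that the authors annotated as promoter (chr17:28643661-28644578) had no peak in Day0 replicate 2, 6MP replicate 1 or CER replicate 2. In the other libraries without GSK-LSD1 the signal was between -2.77 and -2.08, against -0.75 and -0.32 in LSD1i and -0.36 and -0.17 in Combo. The differences from Vehicle were 1.72 ± 0.26 (limma adjusted p = 1.05e-04) and 1.99 ± 0.26 (adjusted p = 9.64e-06). Together with the Slc9a8 and Slc6a19os regions it kept its call under every alternative tried in both LSD1i and Combo. Over the whole class, 12 rows opened and 36 closed, per the authors' deposited table for LSD1i, and 21 opened and 2 closed in that for Combo. The median fold there was -0.41 and 1.15, beside -0.45 and 0.89 over all rows of the tables.

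Carriers of carboxylates, glutamate, choline and sugar phosphates also held opened regions. In the 3′ UTR of Slc13a3, a sodium-dicarboxylate cotransporter (chr2:165404851-165405715), signal was 0.50 and 0.57 in LSD1i, 0.94 and 0.78 in Combo and between -0.97 and -0.19 elsewhere. It differed from Vehicle by 1.13 ± 0.17 (limma adjusted p = 5.88e-05) in LSD1i and 1.45 ± 0.17 (adjusted p = 7.64e-07) in Combo. The former was not called when scaled by depth, at 0.97 (adjusted p = 0.506). The RefSeq start of Slc37a3, of the sugar phosphate exchanger family, had no peak in any library. A region inside that gene that the authors annotated as promoter (chr6:39372308-39373478) was at 1.31 and 1.33 in LSD1i, 1.02 and 1.21 in Combo and 0.04 to 0.82 elsewhere. It differed by 0.86 ± 0.16 (limma adjusted p = 8.72e-04) and 0.66 ± 0.16 (adjusted p = 0.00808), and in LSD1i by 0.70 with adjusted p = 0.937 when scaled by depth. An intron 1 region of Slc44a1, a choline transporter, differed by 0.58 (limma adjusted p = 0.0175) in LSD1i and 0.70 (adjusted p = 0.00258) in Combo. An exon 11 region of Slc10a7, of the bile acid carrier family, differed by 0.67 (adjusted p = 0.0272) and 0.68 (adjusted p = 0.0177). Scaled by depth, the Combo differences at Slc37a3, Slc44a1 and Slc10a7 were 0.88, 0.92 and 0.91 without a call. Leaving out Vehicle replicate 1 ended both Slc10a7 calls, at 0.44 in LSD1i and 0.46 in Combo, the Slc44a1 call in LSD1i, at 0.51, and the Slc37a3 call in Combo, at 0.55. Without LSD1i replicate 1 or 2 the LSD1i values were 0.55 and 0.61 at Slc44a1 and 0.74 and 0.59 at Slc10a7, not called. In Combo, leaving out replicate 1 ended the calls at Slc44a1, at 0.64, and Slc10a7, at 0.60, and leaving out replicate 2 those at Slc37a3, at 0.56, and Slc10a7, at 0.77.

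The region annotated to Slc1a2, the main glutamate carrier of astrocytes, lies inside Cd44, an adhesion receptor gene, 24225 bases from Slc1a2 (chr2:102815009-102815943). No peak was at the start of Slc1a2 itself in any library. Signal rose by day 2 without drug: -1.31 and -1.49 in Day0, -0.81 and -0.16 in Vehicle, 0.43 and 0.59 in LSD1i and 0.45 and 0.35 in Combo, with 6MP and CER between -0.97 and -0.67. The difference between Vehicle and Day0 was 0.91 ± 0.19 (limma adjusted p = 0.0494), that between LSD1i and Vehicle 0.99 ± 0.19 (adjusted p = 0.00115) and that between Combo and Vehicle 0.89 ± 0.19 (adjusted p = 0.00242). The LSD1i call was lost without Vehicle replicate 1, at 0.67, and without LSD1i replicate 2, at 0.91. The Combo call was lost without Vehicle replicate 1, at 0.56, and when scaled by depth, at 1.11 (limma adjusted p = 0.111).

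**Figure D3:**
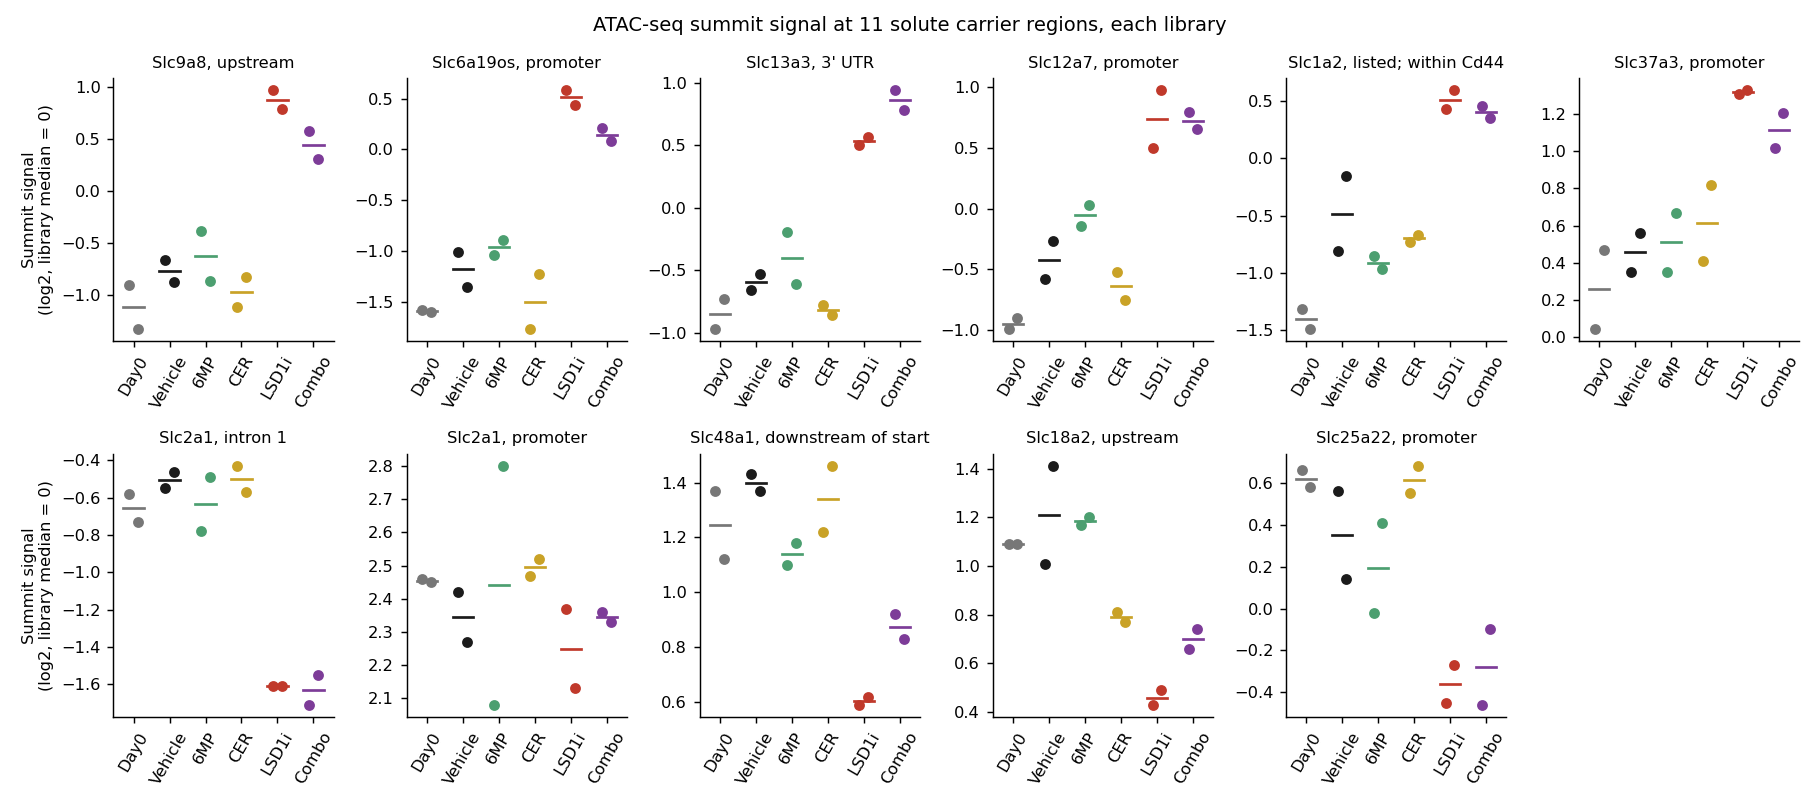
Summit signal (log2, library median at 0) of 11 Slc regions in each library by group, with a line at the group mean. Promoter labels follow the authors' annotation. In 6 opened regions the LSD1i and Combo points are above the other groups; of the closed ones, Slc2a1 intron 1 is lower in LSD1i and Combo while the Slc2a1 promoter shows no such order.

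Some regions had a peak only where GSK-LSD1 was given. Of 73147 regions, 690 (0.943%) were called in all 4 GSK-LSD1 libraries and none of the other 8, and 9 of them were Slc regions; the reverse pattern had 8 regions and no Slc region. Since absence of a call also follows depth, the values are pileups in fragments, where the smallest called summit of a library held 10 to 14. Intron 10 of Slc12a8, of the cation-chloride cotransporter family (chr16:33641618-33642686), held 38 and 40 fragments in LSD1i and 89 and 119 in Combo. Its fold of 3.01 (log2) in LSD1i and 4.28 in Combo was the highest Slc value in each of the authors' deposited tables. Between Combo and LSD1i it differed by 1.04 ± 0.24, which did not pass (limma adjusted p = 0.0651).

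A region at -35940 bases from a Slc9a8 start (chr2:167385419-167385772) held 132 and 153 fragments in LSD1i and 141 and 151 in Combo, the largest pileups of the 9. It lies beside the Slc9a8 region described above. A region inside Slc16a10, an aromatic amino acid carrier, that the authors annotated as promoter (chr10:40077503-40078045) held 72, 96, 87 and 83 in the same order. The RefSeq start of Slc16a10 had a peak in all 12 libraries. A region before Slc26a9, an epithelial chloride transporter (chr1:131734658-131735181), held 68, 81, 112 and 99. The region near Slc38a4, a neutral amino acid carrier, held 27, 28, 58 and 41. Regions in Slc9a2, Slc9c1 and Slc29a4 held 19 to 37 fragments, near the smallest called pileups. The pileups did not follow the authors' folds. Slc9a2 and Slc38a4 were among the 10 Slc genes with the highest fold in the authors' deposited table for LSD1i. Slc38a4 was among the 10 highest in that for Combo as well. Slc9a8, with the largest pileups, was in neither set.

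In 5 further Slc regions a peak was called in both Combo libraries and nowhere else, as in 490 regions in all (0.670%). The one at -1476 bases from the start of Slc11a1, the phagosomal metal transporter of macrophages (chr1:74373401-74373719), held 186 and 238 fragments, whereas its start site region was open in every library, at 1.09 to 1.70. The region before Slc31a2, a copper transporter, held 59 and 79, and the last exon of Slc43a1, a large neutral amino acid carrier, 62 and 53. Regions of Slc35d3 and Slc24a3 held 30 and 33, and 16 and 19. Slc35d3 and Slc43a1 were among the 10 Slc genes with the highest fold in the authors' deposited table for Combo. Slc11a1, with the largest pileups, was not. Pileup is known only where a peak was called, so the size of a change is not read from these calls. Only Slc2a12 had a peak in both LSD1i libraries alone, among 261 such regions. Intron 4 of Slc38a1, a glutamine carrier (chr15:96593193-96594630), held 24 and 11 fragments in Day0, 59 and 80 in LSD1i and 90 and 70 in Combo, with no peak in the other 6 libraries.

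**Figure D4:**
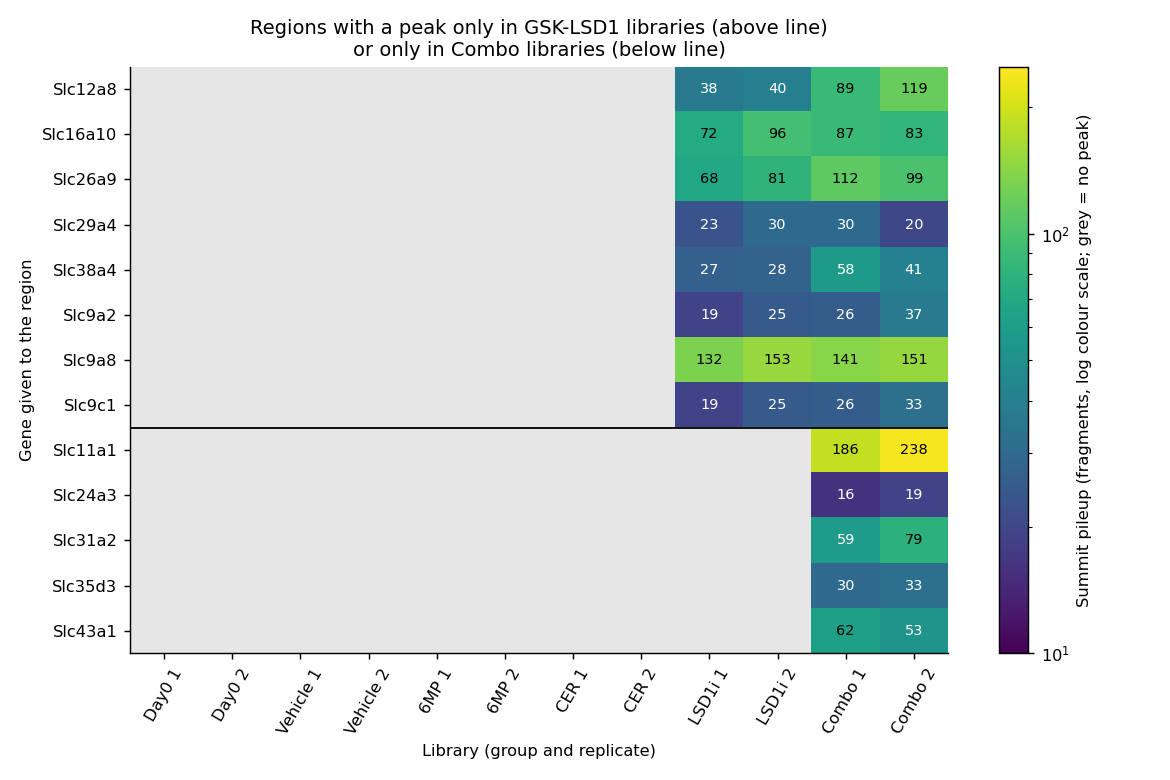
Fragment pileup at the summit of 13 Slc regions (rows) in each of the 12 libraries (columns), with grey where no peak was called. The first 8 regions are filled in the 4 GSK-LSD1 columns alone, the last 5 in the Combo columns alone.

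At Slc2a1, which encodes GLUT1, the basal glucose transporter, limma called a region inside the gene closed and did not call the start site. The authors' deposited table for LSD1i listed both regions, each as closed. In its intron 1, 9745 bases past the start (chr4:119118653-119119263), signal was -0.58 and -0.73 in Day0, -0.55 and -0.46 in Vehicle, -0.78 and -0.49 in 6MP and -0.43 and -0.57 in CER. It was -1.61 in both LSD1i libraries and -1.71 and -1.55 in Combo. The 4 GSK-LSD1 libraries were all below the other 8, by -1.11 ± 0.20 for LSD1i (limma adjusted p = 7.87e-04) and -1.13 ± 0.20 for Combo (adjusted p = 4.15e-04) relative to Vehicle. Scaled by depth these were -1.26 (adjusted p = 0.0926) and -0.90 (adjusted p = 0.234).

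Over the Slc2a1 start (chr4:119108368-119109465) the signal was 2.46 and 2.45 in Day0, 2.42 and 2.27 in Vehicle, 2.08 and 2.80 in 6MP, 2.47 and 2.52 in CER, 2.37 and 2.13 in LSD1i and 2.36 and 2.33 in Combo. These groups overlap. The difference was -0.10 for LSD1i, with a 95% interval of -0.52 to 0.32, and 0.00 for Combo, with -0.42 to 0.42. The region at -2633 bases closed in LSD1i, by -0.51 ± 0.15 (limma adjusted p = 0.0406), and differed by -0.17 in Combo (adjusted p = 0.568). The former call was lost without any of the 4 libraries, at -0.65 to -0.38. Intron 2 of Slc2a3, the high-affinity GLUT3, differed by -0.46 in LSD1i (adjusted p = 0.132), and closed by -0.79 ± 0.15 in Combo against Day0, 6MP and CER (adjusted p = 3.21e-04). Across the Slc2, Slc5, Slc45 and Slc50 families, 2 rows opened and 28 closed, per the authors' deposited table for LSD1i, with a median of -0.54 beside -0.45 over all its rows. Of 26 such regions tested on summit signal, 0 opened and 4 closed in LSD1i, beside 4.00% opened and 2.05% closed over all regions, and since the rows were chosen in this contrast nothing is read from the count.

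**Figure D5:**
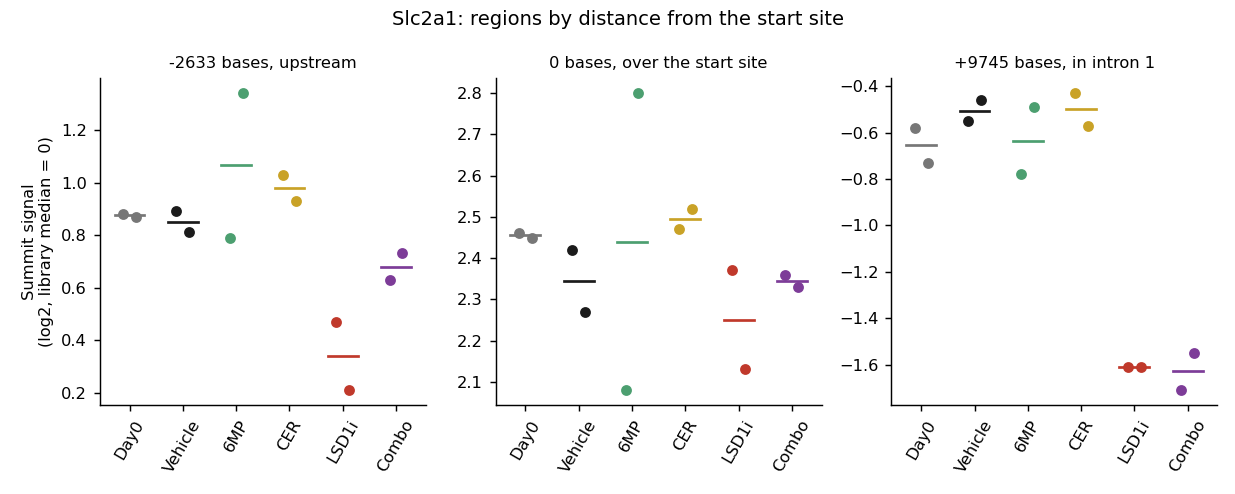
Summit signal (log2, library median at 0) at 3 Slc2a1 regions, by distance from the start site, each panel with its own axis; points are libraries and lines group means. LSD1i and Combo are lowest at +9745, at -1.71 to -1.55, and overlap the other groups at the start.

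Of the closed regions outside sugar carriers, the one 1686 bases past the start of Slc48a1, a heme transporter (chr15:97786177-97787996), was at 1.43 and 1.37 in Vehicle, 0.59 and 0.62 in LSD1i and 0.92 and 0.83 in Combo. Every other library was at 1.10 or above, so the groups did not overlap. It closed by -0.79 ± 0.14 in LSD1i (limma adjusted p = 4.85e-04) and by -0.52 in Combo (adjusted p = 0.0165). Upstream of Slc18a2 (chr19:59251804-59253342, at -7582 bases from the start) signal fell from 1.01 and 1.41 in Vehicle to 0.43 and 0.49 in LSD1i and 0.66 and 0.74 in Combo. That is a difference of -0.75 ± 0.14 (limma adjusted p = 0.00101) and -0.51 (adjusted p = 0.0208), and the start of the same gene closed as well. Scaled by depth, neither LSD1i call remained, at -0.95 (adjusted p = 0.751) for Slc48a1 and -0.90 (adjusted p = 0.792) for Slc18a2. At Slc39a14, a zinc and iron carrier, a region 1443 bases past the start closed by -0.89 ± 0.21 in LSD1i (adjusted p = 0.00837), and was not called without Vehicle replicate 2, at -0.62, LSD1i replicate 1, at -0.98, or LSD1i replicate 2, at -0.79. In Combo the calls at Slc48a1 and Slc18a2 were lost on depth, at -0.30 and -0.29, and without either Combo library, at -0.57 and -0.48 for Slc48a1 and -0.47 and -0.55 for Slc18a2. They were lost as well without Vehicle replicate 1 at Slc48a1, at -0.49, and without Vehicle replicate 2 at Slc18a2, at -0.31.

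Mitochondrial carriers were listed mostly as closed in LSD1i and mostly as opened in Combo. The authors' deposited table for Combo had 5 rows opened and 1 closed, at a median fold of 0.82 beside 0.89 over all its rows. In the authors' deposited table for LSD1i 34 Slc25 genes had a row, among them 27 of the 36 with a start window; 51 rows closed and 2 opened, and the median fold was -0.43 beside -0.45 over the table. On summit signal 8 of 31 start regions closed in the GSK-LSD1 contrast (25.8%, beside 26.6% of all start sites). Slc25a1, the citrate carrier that supplies fatty acid synthesis, differed at its start by -0.19 in LSD1i (95% interval -0.48 to 0.10). At Slc25a20 the signal was 0.54 and 0.25 in Vehicle, -0.27 and -0.05 in LSD1i and 0.25 and 0.18 in Combo, so Combo overlapped Vehicle. Its LSD1i call was lost without Vehicle replicate 1, at -0.41, LSD1i replicate 1, at -0.45, or LSD1i replicate 2, at -0.67. Intron 2 of Slc25a15, the ornithine carrier, opened in Combo, from -2.10 and -1.88 in Vehicle to -0.59 and -0.54, by 1.43 ± 0.24 (limma adjusted p = 1.64e-04), and differed by 0.64 in LSD1i (adjusted p = 0.112).

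Amino acid carriers had 7 rows opened and 41 closed, per the authors' deposited table for LSD1i, and 15 opened and 0 closed in that for Combo. The medians were -0.47 and 1.04, beside -0.45 and 0.89 over all rows of the tables. At their start sites 1 of 21 opened and 0 closed in LSD1i, and 0 opened and 1 closed in Combo, where 0.906% and 1.72% of all start sites did in LSD1i and 1.20% and 1.21% in Combo. Promoter regions of the main carriers of glutamine, leucine and cystine were not called by limma in LSD1i. Slc1a5 differed by -0.25 (95% interval -0.57 to 0.07), Slc38a2 by -0.14 (-0.44 to 0.16) and Slc7a11 by -0.13 (-0.41 to 0.16). Slc7a5 differed by -0.19 (-0.58 to 0.21) and its partner Slc3a2 by -0.05 (-0.43 to 0.32). The authors' deposited table for LSD1i did list these promoter regions. Its rows of Slc1a5, Slc38a2, Slc7a11 and Slc3a2 were all closed, and those of Slc7a5 went both ways. Slc1a5 closed by -0.26 in the 4 GSK-LSD1 libraries against the other 8 (limma adjusted p = 0.0368), which was 0.01 when scaled by depth. A second promoter region of Slc1a5 closed by -0.59 in Combo (adjusted p = 0.0324), a call lost on depth, at -0.36, and without any of the 4 libraries, at -0.65 to -0.52. A region that the authors annotated to intron 1 of Slc7a5, and that lies 3184 bases outside the RefSeq gene, opened in Combo, from -1.22 and -1.40 in Vehicle to -0.66 and -0.49, by 0.74 ± 0.21 (limma adjusted p = 0.0283), a call lost on depth, at 0.96, and without any of the 4 libraries, at 0.65 to 0.83. Amino acid response genes act with these carriers when amino acids run short, and 13 of those searched had a start window. All 13 had a row in the authors' deposited table for LSD1i, with 1 row opened and 19 closed. The median fold of these rows was -0.46, beside -0.45 over the table, where 83.4% of all rows closed. At their start sites Chac1, a glutathione-degrading enzyme, closed by -0.77 ± 0.15 (limma adjusted p = 0.00139) and Asns, asparagine synthetase, by -0.50 ± 0.14 (adjusted p = 0.0292). In Combo 0 of the 13 were called, and 2 had an unadjusted p under 0.05.

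Carriers that handle substrates related to the drugs had few limma calls against Vehicle. The authors' deposited table for LSD1i listed Slc29a1, Slc29a3, Slc19a1, Slc43a3, Slc27a1, Slc27a4, Slc16a1 and Slc16a3, all as closed. In it 83.4% of all rows closed. That for Combo listed Slc29a3 alone of these genes, as opened. By limma several of these carriers closed over all GSK-LSD1 libraries, where 26.6% of regions over any start site closed. Slc29a1, the main equilibrative nucleoside transporter, differed at its start by -0.18 in LSD1i (95% interval -0.46 to 0.10) and -0.35 in Combo (-0.63 to -0.07, limma adjusted p = 0.125). Slc43a3, a purine nucleobase transporter, differed at its promoter by -0.10 and -0.13. Slc19a1 was at 1.75 and 1.64 in Vehicle, 1.36 and 1.32 in LSD1i and 1.41 and 1.53 in Combo, a difference of -0.36 (adjusted p = 0.187) and -0.23 (adjusted p = 0.440). An intron 2 region of Slc29a3, the lysosomal nucleoside carrier, opened in LSD1i against Day0, 6MP and CER by 0.75 ± 0.18 (limma adjusted p = 0.00268) and in Combo by 0.65 ± 0.18 (adjusted p = 0.0114). Against Vehicle it differed by 0.46 (adjusted p = 0.228) and 0.36 (adjusted p = 0.372). Other carriers closed in LSD1i against Day0, 6MP and CER, where 12.4% of all regions closed. These were the start sites of Slc19a1 (-0.41, limma adjusted p = 0.0197) and Slc16a3 (-0.34, adjusted p = 0.0470) and regions of Slc43a3 and Slc27a1. In the same contrast of Combo, where 8.70% of all regions closed, a Slc27a1 region closed. Of the fatty acid transporters, a promoter region of Slc27a1 (chr8:71578995-71581053) closed in LSD1i by -0.75 ± 0.21 (adjusted p = 0.0238), from -0.33 and -0.75 in Vehicle to -1.16 and -1.43, and differed by -0.61 in Combo (adjusted p = 0.0627). The call was lost without Vehicle replicate 1, at -0.54, LSD1i replicate 1, at -0.88, or LSD1i replicate 2, at -0.62. The lactate carriers Slc16a1 and Slc16a3 differed by -0.14 and -0.36 in LSD1i, without a call. In the 4 GSK-LSD1 libraries against the other 8, closed regions were those of Slc29a1 (-0.22, limma adjusted p = 0.0473), Slc27a4 (-0.27, adjusted p = 0.0290), Slc16a3 (-0.29, adjusted p = 0.0168) and Slc27a1 (-0.64, adjusted p = 2.46e-04), with 2 of Slc19a1 (-0.33, adjusted p = 0.00889, and -0.40, adjusted p = 0.00710). In that contrast 18.3% of all regions and 26.6% of those over any start site closed, so nothing is read from these 6. Scaled by depth these 6 were at -0.37 to 0.05 and none was called, and leaving out 1 or another library ended each call but that of Slc27a1. Of the genes chosen whatever their values, Slc28a2, Slc27a2, Slc40a1, Slc39a8 and Slc46a2 had no listed row.

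No listed Slc region was called by limma between Combo and LSD1i, the contrast that carries the effect of adding mercaptopurine and cerulenin to GSK-LSD1. Over all 43669 regions 0.0893% opened and 0.0229% closed. Of the 320 Slc regions tested 35 had an unadjusted p under 0.05, beside 4728 of all 43669. Of 152 start regions 0 were called, where 0.0209% of all start sites opened, and 4 had an unadjusted p under 0.05. The lowest adjusted p values were at Slc29a4, a monoamine transporter (-0.70, limma adjusted p = 0.0580), and Slc12a8 (1.04, adjusted p = 0.0651). With only these 4 libraries in the fit, 10 opened and 8 closed, where 1266 and 1023 of all 43669 regions did. An intergenic region near Slc44a3, a choline transporter-like gene, opened in both Combo (1.12 ± 0.21, limma adjusted p = 5.42e-04) and LSD1i (0.73 ± 0.21, adjusted p = 0.0307). So did a region 5489 bases outside Slc23a2, an ascorbate carrier, in Combo (1.60 ± 0.30, limma adjusted p = 5.90e-04) and LSD1i (0.98 ± 0.30, adjusted p = 0.0455). The LSD1i calls were lost on depth, at 0.57 for Slc44a3 and 0.82 for Slc23a2. They were lost as well without Vehicle replicate 1 (0.68 and 0.94), LSD1i replicate 1 (0.94 and 0.68) or LSD1i replicate 2 (0.52 and 1.28), and that of Slc23a2 without Vehicle replicate 2, at 1.02. An intron region of Slc24a3, a sodium-calcium-potassium exchanger, opened in Combo by 1.20 ± 0.27 (limma adjusted p = 0.00458) and differed by 0.21 in LSD1i (adjusted p = 0.698). An intron region of Slc39a11, a zinc carrier, closed in Combo by -1.31 ± 0.35 (adjusted p = 0.0168) and differed by -0.79 in LSD1i (adjusted p = 0.196). That call was lost without Vehicle replicate 2, at -1.10, or Combo replicate 2, at -1.11, and the Slc24a3 call without Combo replicate 2, at 1.15.

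The single metabolic drugs and time alone moved few Slc regions. In CER 0 of 296 opened and 1 closed (background 0.154% and 0.174%). An unadjusted p under 0.05 was found at 38 of the 296, beside 4639 of all 38409 regions. The closed one was a region inside Slc9a9, an endosomal sodium-proton exchanger, that the authors annotated as promoter, at -0.85 ± 0.18 (limma adjusted p = 0.0342). Its signal was -0.97 and -0.62 in CER, -0.21 and 0.31 in Vehicle and -0.50 and -0.83 in Day0, so CER and Day0 overlapped. The count was 9 without Vehicle replicate 1 and 0 without Vehicle replicate 2 or CER replicate 1, and 0 when scaled by depth. The authors' deposited table for CER listed 1 Slc row, closed, in Slc4a10, a bicarbonate carrier, at -1.23 (FDR 0.0468), where 0.00636% of 47174 regions opened and 0.358% closed. At start sites 0 of 151 were called by limma in CER, beside 0.0639% opened and 0.0745% closed over all start sites, and 22 had an unadjusted p under 0.05. From Day0 to Vehicle 2 of 302 opened and 0 closed (0.0710% and 0.0101%), namely the Slc1a2 region and one at -1785 bases from a start of Slc2a9, a urate transporter, at 0.98 ± 0.17 (limma adjusted p = 0.0183). That region was at -1.01 and -1.24 in Day0 and between -0.34 and 0.27 in all other libraries. The count was 21 without Vehicle replicate 1, 0 without any of the other 3 libraries and 0 when scaled by depth. The authors' deposited table for Day0 had 13 Slc rows, all opened, at a median of 0.62, where 1.80% of 39858 regions opened and 0.0677% closed. At start sites 0 of 152 were called by limma, with 0.0106% of all start sites opened and 0.0106% closed, and 17 had an unadjusted p under 0.05. In 6MP 0 of 302 were called (0% of 37143), and 17 had an unadjusted p under 0.05, beside 1883 of all 37143.

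Rows can be read in libraries their table did not use. Of the 46 regions opened in the LSD1i table, 21 could be tested in Combo against Day0, 6MP and CER; 17 opened, 0 closed and all 21 were positive, with a median of 0.92, where 6.95% of 33915 regions opened and 8.70% closed. Of the 267 closed regions 239 could be tested and 34 closed, at a median of -0.21, with 214 of the same sign (89.5%). The median over all regions of that contrast was itself -0.10. Of 9242 regions over any start site, 126 opened and 896 closed there. The share of negative signs over all regions was not counted, so nothing is read from the 89.5%. For the Combo table, 39 of 82 opened regions could be tested in LSD1i against the same 6 libraries, and 21 opened, at a median of 0.59, with 33 of the same sign (84.6%; background 8.92% opened and 12.4% closed of 33562). Over all listed regions the first contrast called 31 opened and 35 closed, 37 and 25 centred by intensity and 37 and 0 scaled by depth; the second called 27 and 63, and 11 and 0 scaled by depth. The first total, 66, was 17, 32 and 125 on leaving out Combo replicate 1, Combo replicate 2 or 6MP replicate 1, and the second, 90, was 50 without LSD1i replicate 1, 31 without LSD1i replicate 2 and 143 without 6MP replicate 1. Regions without a peak in all libraries of the contrast, among them the GSK-LSD1-only regions, are outside these counts. In the contrast of all 4 GSK-LSD1 libraries against the other 8, 34 of 285 opened and 91 closed, with 11.4% and 18.3% of all 33367 regions, and the closed ones included 66 promoters. The split was 44 and 69 centred by intensity and 35 and 2 scaled by depth, and the total of 125 was 75, 78 and 188 on leaving out LSD1i replicate 2, Combo replicate 1 or 6MP replicate 1.

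Other membrane transport genes, whose symbols do not hold Slc and a digit, were counted beside them, with no test between the sets. Genes for organic anion (the Slco solute carriers), ABC, sodium pump, proton pump and water channel proteins had 10 rows opened and 77 closed, per the authors' deposited table for LSD1i. They had 27 opened and 2 closed in that for Combo. The medians were -0.47 and 0.83, beside -0.45 and 0.89 over all rows of the tables. At their start sites 0 of 36 were called in LSD1i and 0 of 38 in Combo, where 5 and 4 had an unadjusted p under 0.05 by limma.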

How the data were processed

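ATAC-seq peaks were taken from the peak lists of 12 libraries in 6 groups. The submitters' processing notes name MACS2 2.1.2 and DiffBind, with Picard 2.18.26, SAMtools 1.9, Bowtie2 and Trimmomatic 0.38, and the build mm10. Each peak was deposited with a score, its fold ratio to background and the −log10 of its p-value and q-value. The authors' deposited comparison tables give log2 levels and folds, p-value and FDR, and list no FDR above 0.05. The table for 6MP was not used here.

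Fragment pileup and background were solved from each summit's fold ratio and p-value, and pileups were whole numbers at 100% of summits (tolerance 0.001 in -log10 units). The smallest background of a library was taken as its depth. Peaks overlapping by at least 1 base were joined into 73147 regions, 33367 of them called in all 12 libraries. The median of those 33367 regions was subtracted in each library. limma 3.58.1 in R 4.3.3 fitted a mean per group over all 12 libraries, with a mean-dependent prior variance, on regions called in every library of a contrast, with Benjamini-Hochberg adjustment over all of them at 0.05. An exact test of 2 against 2 libraries cannot go below p = 0.333. Pileups of 10 to 14 fragments at the weakest summits limit precision by counting error.

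Genes were annotated by the authors' tables, and neighbours and start windows by RefSeq (GRCm38.p6). The members and gene lists were chosen with earlier results of these data known. The contrasts against Day0, 6MP and CER and the start site regions were added after seeing the data. Named genes were, for LSD1i and Combo, the 10 with the highest and the 10 with the lowest fold; every Slc row of CER and the 10 largest of Day0; the 10 lowest limma p-values in 4 contrasts; regions called in the 4 GSK-LSD1 libraries alone or the other 8 alone; and carriers of substrates related to the drugs or the lineage. That gave 95 regions of 69 genes, of which some are not reported here. A shared replicate number was checked across groups and was not taken to pair the libraries, and the suffix of library names was tried as a block. Alternatives were other scalings, fits, filters, blocks and leaving out each library.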

Additional observations from a re-analysis of the deposited data

How the results depend on the processing

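Most counts of Slc regions called fell when the signal was scaled by depth alone: to 3 (from 41) in LSD1i, 18 (from 42) in Combo, 37 (from 125) for the GSK-LSD1 libraries against the others, 0 in CER and Day0, 37 (from 66) for Combo and 11 (from 90) for LSD1i against Day0, 6MP and CER, and to 0, 0 and 1 for start sites in LSD1i, Combo and GSK-LSD1. Between Combo and LSD1i it gave 2 where the reported fit gave 0. Depth scaling moved the median of all regions to -0.19 in LSD1i, 0.13 in Combo, 0.33 between Combo and LSD1i, 0.19 in GSK-LSD1, -0.26 in CER, 0.19 in Day0 and -0.46 in 6MP. Under it the GSK-LSD1 differences reversed, without a call, at Slc22a4 (0.03), Slc29a1 (0.05), Slc27a4 (0.00) and Slc1a5 (0.01). Centred by intensity, the counts were 1 between Combo and LSD1i, 2 in CER and 3 for start sites in Combo. With the fit limited to the libraries compared they were 18 between Combo and LSD1i, 0 in CER and Day0, and 7 and 2 for start sites in LSD1i and Combo. A peak in at least 1 library of each group gave 2 in CER and 1 in Day0. A block on the suffix of library names, whose meaning is not given, called 2 between Combo and LSD1i, 7 in CER, 19 in Day0 and 101 in Combo against Day0, 6MP and CER. The replicate block gave 2 between Combo and LSD1i and stayed within 1.5 times the reported count elsewhere (39 in LSD1i, 40 in Combo). With the fit also limited to the libraries compared, chosen after seeing the data, it gave 74 in LSD1i, 38 in Combo, 17 between Combo and LSD1i, 8 in CER, 16 in Day0 and 0 in 6MP, and 18 and 2 for start sites in LSD1i and Combo. Correlations of same-numbered libraries over 33367 regions ran from -0.344 (Vehicle with Combo) to 0.246 (Vehicle with CER). They were over 0.1 in 3 of 15 pairs of groups, the others being 0.151 for Vehicle with LSD1i and 0.139 for 6MP with Combo. The numbers were therefore not taken to pair the libraries. Suffix R was on Vehicle replicate 1, CER replicate 1, 6MP replicate 2 and Combo replicate 2. Where the R libraries of 2 groups share a number, the correlations were 0.246 and 0.139. Where their numbers differ, they were -0.344, -0.205 (CER with Combo), -0.108 (Vehicle with 6MP) and -0.038 (6MP with CER). Whether a shared suffix marks libraries handled together was not tested. Crossing the numbers, chosen after seeing the data, called 118 in Combo and 0 in 6MP. Leaving out 1 library gave 10 to 45 in LSD1i, 19 to 36 in Combo, 75 to 188 in GSK-LSD1, 0 to 9 in CER, 0 to 21 in Day0, 17 to 125 and 31 to 143 for Combo and LSD1i against Day0, 6MP and CER, and 0 to 13, 0 to 4 and 19 to 96 for start sites in LSD1i, Combo and GSK-LSD1. It gave 0 between Combo and LSD1i and in 6MP. At the stricter FDR of 0.01 the authors' deposited tables keep 0 of 1 Slc row for CER and 3 of 13 for Day0. Of 83 called values at named regions, 27 kept their call under every alternative. The cause of these changes was not tested.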
